A study of Mus musculus with 4 samples.

Results

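Macrophages are the main resident immune cells of the ovary. They engulf dying follicle cells and cell debris, clear spent luteal tissue, present antigen to T cells and release cytokines and growth factors. Some settle in the tissue early in life and renew there, and others come from blood monocytes that carry the chemokine receptor Ccr2. Doxorubicin is an anthracycline that poisons topoisomerase II and breaks DNA, and the transcription factor p53 responds to such breaks by inducing cell cycle inhibitors, repair genes and apoptosis genes. Anti-Müllerian hormone (AMH) is a TGF-β family hormone made by granulosa cells, which signals through Amhr2 and the BMP-type Smad proteins.

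The macrophages described here are 411 of 30523 cells kept from 33639 deposited cell barcodes of 4 mouse ovary libraries. A cell counted as a macrophage when it had at least 1000 UMIs (unique molecular identifiers, 1 per captured transcript), at most 20% mitochondrial UMIs and a UMI of at least 4 of the 6 genes Csf1r, Adgre1, C1qa, C1qb, C1qc and Fcgr1. It also had to hold 0 UMIs of Cd3e, Cdh5, Fshr and Lum, which mark T cells, endothelium, granulosa cells and stroma. The 10 genes of that rule define the cells, so their levels are no finding.

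The study asked whether AMH protects the ovary from doxorubicin. Each library pooled 1 ovary from each of 5 prepubertal mice, dosed weekly 2 times from postnatal day 25 and sampled 4 hours after the last dose. Control mice received PBS or saline, and DOX mice received doxorubicin at 3 mg/kg. The DOX+AMH mice received that dose of doxorubicin together with recombinant human AMH at 0.75 mg/kg, and the AMH mice that dose of AMH alone. The labels used here give no strain. With 1 library per group, every difference below is between libraries and has no replicate check, no test between groups is possible, and animals, dissection, library and treatment cannot be told apart. Intervals are 95% and cover counting error only. Those of levels and ratios treat each UMI as independent, so they leave out that UMIs cluster in cells and that few cells were sampled.

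The macrophages of the control library numbered 145 of 8588 kept cells, a share of 1.69% (exact binomial interval 1.43 to 1.98). The DOX library held 63 of 6406 (0.983%, 0.757 to 1.26), and the DOX+AMH library 52 of 6983 (0.745%, 0.557 to 0.975). The AMH library held 151 of 8546 (1.77%, 1.5 to 2.07). Both libraries with DOX therefore had a smaller share than both without it, and their intervals did not overlap those of the other pair. A share is relative to all other recovered cells, so fewer macrophages and more of other cells cannot be told apart.

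**Figure D1:**
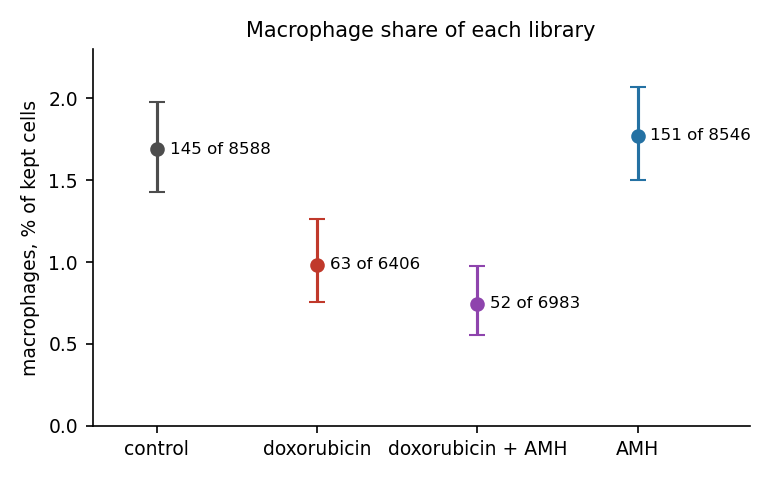
Macrophage share of each library in percent of kept cells (linear axis from 0), with the number of cells beside each point; points are single libraries and bars are exact 95% binomial intervals. The 2 libraries with DOX lie at 0.983% and 0.745%, below 1.69% in control and 1.77% in AMH.

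Depth bears on who passes such a rule. The median macrophage had 8627 UMIs in control, 9804 in DOX, 13478 in DOX+AMH and 7711 in AMH, so the cells of the DOX+AMH library were the deepest although the fewest. The sums behind the levels below are 1424266, 744974, 800246 and 1518545 UMIs in the same order. Cells just inside the rule, with exactly 4 of the 6 genes, numbered 25, 13, 8 and 30. Those just outside, with exactly 3, numbered 31, 21, 13 and 19. A further 29, 12, 18 and 37 cells had enough macrophage genes and were left out by Cd3e, Cdh5, Fshr or Lum. Between 11 and 24 barcodes were shared by any pair of libraries, and none of them was a macrophage in both.

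The cells carried macrophage genes that the rule did not use. Per 1000000 UMIs (CPM), Lyz2 (lysozyme) stood at 9074 in macrophages and 27.9 in all other kept cells, Pf4 (a chemokine of tissue macrophages) at 1234 and 2.58, and Ms4a7 at 778 and 1.58. Tyrobp and Fcer1g (signalling adaptors), Ctss (a lysosomal protease) and Lgals3 (a galectin) were also among the 15 genes with the highest ratio. These genes go along with those of the rule, so they describe the cells and do not test the label. Ptprc, the pan-leukocyte gene, had a UMI in 112 of 145, 46 of 63, 43 of 52 and 118 of 151 cells. Ly6g, Cxcr2 and Retnlg (neutrophils), Trac and Gzma (T and NK cells), Ccr7 (migratory dendritic cells), Mcpt4 and Ms4a2 (mast cells) and Ddx4 (germ cells) were at 0 UMIs in the macrophages of all 4 libraries. As whole lists, T and NK markers summed to at most 2.81 CPM in any library and dendritic cell markers to between 43.7 and 63.2 CPM (29.9 to 40.9 in all other kept cells). The neutrophil list, with 3 of 6 genes at 0 throughout, summed to between 47.0 and 78.7 CPM (2.02 to 5.66 in other kept cells). The B cell list stood at 195, 122, 60.0 and 151 CPM (6.10 to 6.61 in other kept cells) and the mast cell list at 8.56 to 20.1. The part of such cells or their RNA in the results was not tested.

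RNA of other ovarian cells was present and differed between the libraries. The summed granulosa marker list stood at 189 CPM in control, 1027 in DOX, 179.9 in DOX+AMH and 427 in AMH. The theca list was at 334, 376, 172 and 8.56, the stroma list at 293, 150.3, 67.5 and 115, the smooth muscle list at 135, 83.2, 38.7 and 271, and the epithelium list at 10.5, 22.8, 1.25 and 139.6. Cells with over 0.2% of their UMIs from these 5 lists numbered 15, 9, 6 and 22, and where a call of a listed gene that the text names ends without them, both values are given. Whether this RNA was free in the droplets, engulfed or from doublets was not tested.

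Levels were compared in 4 contrasts. DOX against control and DOX+AMH against AMH give the drug without and with AMH and share no library. AMH against control, and likewise DOX+AMH against DOX, give AMH without and with the drug and again share none. Log2 ratios use CPM plus 5, while their intervals are for the plain ratio of UMIs. In the 3321 genes whose mean over the libraries reached 50 CPM, past 2-fold means a log2 ratio above 1 or below -1. In DOX against control 1.14% of genes were past 2-fold higher and 0.422% lower (1.57% either way), which is 38 and 14 genes. That balance was not stable: it was 23 and 20 without cells rich in other-type RNA, 21 and 20 without the top cell per gene, and 31 and 45 with cells let in that had UMIs of Cd3e, Cdh5, Fshr or Lum. In DOX+AMH against AMH the shares were 0.753% and 1.57% (2.32%). In AMH against control they were 0.813% and 0.632% (1.45%), and in DOX+AMH against DOX 1.08% and 2.44% (3.52%). The medians of all 3321 genes were 0.02, 0.00, -0.02 and -0.04, with 52.2%, 50.3%, 47.2% and 46.0% of genes above 0. Letting in the cells with UMIs of the 4 other-type genes raised the sum of 21 of 24 gene lists in DOX+AMH against AMH and moved 9 of them by over 1.5-fold. It turned the sign of 8 list sums in DOX against control and of 6 in DOX+AMH against AMH, and for several lists below both values are given.

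Among the lists, p53 target genes had the highest median in DOX against control of those with at least 5 genes past the filter. The promoters of Cdkn1a and Ccng1 are shown because both genes were past 2-fold in these cells and both promoters hold a p53 response element. Each is the 250 bases upstream of an annotated start site (RefSeq, GRCm38.p6), written 5′ to 3′ on the gene's strand, with the element in capitals. The Cdkn1a stretch lies on the plus strand at chr17:29090729-29090978 and the Ccng1 stretch on the minus strand at chr11:40755287-40755536.
Cdkn1a: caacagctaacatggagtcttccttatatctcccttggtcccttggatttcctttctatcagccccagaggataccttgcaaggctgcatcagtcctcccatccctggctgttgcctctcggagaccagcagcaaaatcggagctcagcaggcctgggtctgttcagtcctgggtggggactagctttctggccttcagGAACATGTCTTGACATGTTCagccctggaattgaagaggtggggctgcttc
Ccng1: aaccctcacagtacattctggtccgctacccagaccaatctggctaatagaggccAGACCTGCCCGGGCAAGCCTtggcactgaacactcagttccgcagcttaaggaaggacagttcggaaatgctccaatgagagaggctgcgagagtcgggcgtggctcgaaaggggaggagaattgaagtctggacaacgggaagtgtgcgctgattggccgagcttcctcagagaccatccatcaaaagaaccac
The element searched was the p53 consensus, a pair of adjacent half-sites with no spacer, with the C and G of each core kept and at most 2 other mismatches. It is palindromic, so both strands are covered. The first base of the element lies at -51 from the start site in Cdkn1a and at -195 in Ccng1, each with 1 mismatch. Among all 32851 RefSeq promoter windows, which run on to 50 bases past the start site, 107 (0.326%) held such an element, and among the windows of p53-list genes 3 of 31 (9.68%, from 3 of 23 genes), the third being Ckap2. A match is a description of letters and no evidence of binding here.

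Cdkn1a, the p21 inhibitor of cyclin-dependent kinases, stood at 258 CPM in control, 788 in DOX, 491 in DOX+AMH and 189.7 in AMH macrophages. Both libraries with the drug lay above both without it. The log2 ratio was 1.59 (interval 1.42 to 1.80) without AMH and 1.35 (1.15 to 1.60) with it. After each cell was thinned to 2000 UMIs, 31.5% of control, 49.0% of DOX, 45.5% of DOX+AMH and 28.2% of AMH macrophages had a Cdkn1a UMI (unthinned 50.3%, 81.0%, 75% and 47.7%). Intervals of these shares overlapped (23.5 to 40.3, 34.8 to 63.4, 30.4 to 61.2 and 20.7 to 36.8). T and NK cells of the same libraries, selected by their own markers, gave 8.82%, 21.7%, 12.9% and 7.55% at median depths of 7136, 6333, 5582 and 9350.0 UMIs. Each macrophage share lay above that of the lymphocytes of its library. All other kept cells had 30.0, 138, 45.7 and 30.4 CPM.

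Mdm2, the ubiquitin ligase that degrades p53 and is itself a target, was at 64.6, 199, 117 and 71.8 CPM listed with control first, then DOX, then DOX+AMH and AMH last, an order kept from here on. Ccng1, cyclin G1, was at 23.2, 128, 56.2 and 36.2. Both were highest in DOX and next highest in DOX+AMH. For Mdm2 the log2 ratio was 1.55 (1.24 to 2.01) without AMH and 0.67 (0.30 to 1.12) with it, and for Ccng1 2.23 (1.88 to 3.08) and 0.57 (0.03 to 1.23). Between the 2 drug libraries Ccng1 was 1.11 lower with AMH on the log2 scale (-1.73 to -0.65; 0.91 lower without the top cell of each library) and Mdm2 0.73 lower. Bax, which permeabilises mitochondria in apoptosis, stood at 189.6, 319, 309 and 197 CPM, a like difference in both drug pairs (0.74 and 0.64). Phlda3, a repressor of Akt, was under the 50 CPM filter at 7.72, 63.1, 25.0 and 13.8.

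Other p53 targets differed in how they went with the drug. Gdf15, a secreted stress cytokine, was at 126 CPM in control, 275 in DOX, 371 in DOX+AMH and 252 in AMH. Both drug libraries lay above both others, but the intervals of DOX (239 to 316) and AMH (228 to 279) overlapped. Thinned, it was seen in 21.6% of DOX and 21.4% of AMH macrophages. Gdf15 was also higher with AMH alone than in control (log2 0.98, 0.75 to 1.27). Per UMI it was higher in macrophages than in other kept cells, where it was at 4.89 to 12.9 CPM, although those far more numerous cells held more Gdf15 UMIs in all (809 to 1811 a library, against 179 to 383). Btg2, an antiproliferative gene, was at 461, 423, 276 and 406, and Pmaip1 (Noxa) at 70.2, 105, 66.2 and 58.6. Neither was past 2-fold in any contrast.

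**Figure D2:**
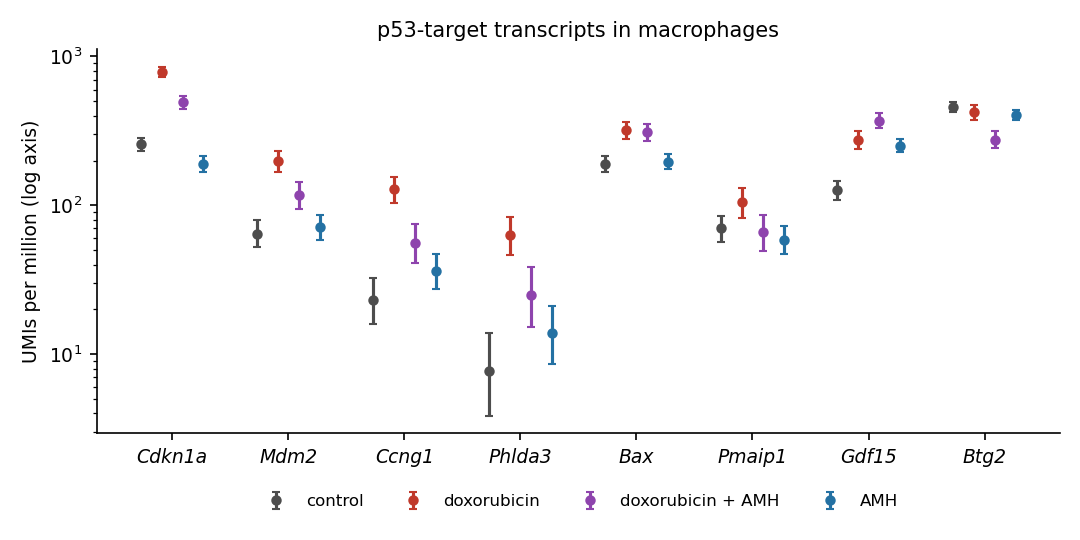
Transcripts of 8 p53 target genes in macrophages, in CPM on a log axis; each point is 1 library and bars are exact 95% Poisson intervals of the UMI sum. Cdkn1a, Mdm2, Ccng1 and Phlda3 are highest in DOX and second in DOX+AMH, while Btg2 is lowest in DOX+AMH at 276.

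Of 31 listed p53 targets 9 passed the filter. In DOX against control 4 of the 9 were past 2-fold higher (Cdkn1a, Mdm2, Ccng1 and Gdf15) and 0 lower, with a median of 0.74, beside the 1.14% and 0.02 given above for all genes. In DOX+AMH against AMH 1 was higher (Cdkn1a) and 0 lower, median 0.55. In AMH against control 0 were past 2-fold, median -0.02. In DOX+AMH against DOX 1 was lower (Ccng1) and 0 higher, median -0.61. Summed over all 31 genes the list stood at 1628, 2861, 2092 and 1606 CPM, with log2 ratios of 0.81 (0.73 to 0.90), 0.38 (0.29 to 0.47), -0.02 (-0.10 to 0.06) and -0.45 (-0.54 to -0.36) in the order of the contrasts. The sums without AMH and with AMH differed, but with 1 library each that difference was not tested. Without the cells rich in other-type RNA the ratios were 1.02, 0.39, 0.03 and -0.59. In all other kept cells the same sum gave 0.43, 0.12, -0.14 and -0.44, and in T and NK cells -0.03 (-0.22 to 0.15), 0.08 (-0.04 to 0.20), 0.19 and 0.30. The T and NK set of the AMH library included a cell of 161482 UMIs and had Ptprc at 159 CPM, against 782 to 862 in the other 3 sets, and Ovgp1 at 579 CPM; the part of that cell in the sums was not tested.

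Single cells showed where the p53 sum came from. At 2000 UMIs a cell, the median macrophage held 3.00 p53-list UMIs in control, 4.00 in DOX, 4.00 in DOX+AMH and 3.00 in AMH, and the means were 3.35, 5.92, 4.25 and 3.13. Cells with at least 5 such UMIs made up 25.2%, 43.1%, 38.6% and 19.8%. The mean lay further above the median in DOX than in the other 3 libraries. The 75th percentile was 8.5 UMIs in DOX and 4.5, 5.00 and 4.00 in control, DOX+AMH and AMH. Without Cdkn1a the mean was 2.79, 4.43, 3.45 and 2.74, so the order did not rest on that gene.

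The MHC class II genes present peptides to CD4 T cells and split ovarian macrophages into cells with many and cells with few such transcripts. Cd74, the invariant chain, was at 4055, 2362, 4472 and 3471 CPM, H2-Aa at 1593, 910.1, 1763 and 1422, and H2-Ab1 at 1443, 849.7, 1608 and 1240.0. DOX macrophages had the lowest level of each, and DOX+AMH macrophages the highest. Of 10 listed genes 7 passed the filter and 0 were past 2-fold in any contrast. The list medians were -0.71 in DOX against control, 0.37 in DOX+AMH against AMH, -0.22 in AMH against control and 0.92 in DOX+AMH against DOX. Summed, the ratios were -0.70 (-0.75 to -0.65), 0.35 (0.31 to 0.39), -0.24 (-0.27 to -0.20) and 0.81 (0.75 to 0.86), with 0.98 in place of 0.35 when cells carrying the 4 other-type genes were let in. The drug ratio thus had opposite signs without and with AMH.

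Counted by cell, the class II shares had wide intervals. Cells with at least 10 UMIs of H2-Aa, H2-Ab1, H2-Eb1 and Cd74 per 2000 made up 39.4% (30.8 to 48.4) of control, 23.5% (12.8 to 37.5) of DOX, 36.4% (22.4 to 52.2) of DOX+AMH and 35.1% (27.0 to 43.9) of AMH macrophages. These intervals overlap in every pair. The limit cuts a range: 13.4%, 5.88%, 13.6% and 14.5% of cells lay between 5 and 15 UMIs. The median cell held 2.00, 0, 4.50 and 3.00 class II UMIs.

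**Figure D3:**
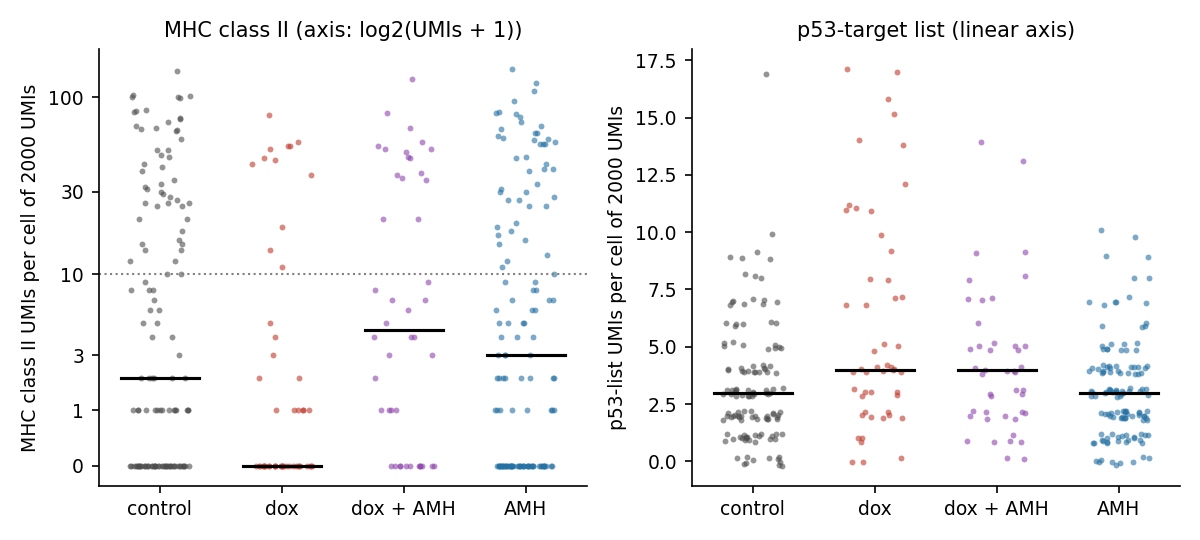
MHC class II UMIs (left, log2(UMIs + 1) axis, dotted line at 10 UMIs) and p53-list UMIs (right, linear axis) in each macrophage thinned to 2000 UMIs, by library; each point is a cell, jittered sideways and, at right, slightly upwards, and bars are medians. Class II UMIs range from 0 to 80 in DOX and from 0 to between 126 and 143 in the other libraries, with medians of 2.00, 0, 4.50 and 3.00, and 43.1% of DOX cells hold at least 5 p53-list UMIs against 25.2% in control.

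Some of what set the class II high cells apart recurred in every library. The 43 single genes compared were a chosen set, and no share over all genes stands beside them. By sign alone, 3 were higher in the high cells of all 4 libraries (Ccr2, Cxcl9 and S100a4). A further 17 were lower in all 4, and the other 23 had no such common direction. Among the 17, intervals of Cd163 and Maf spanned 0 in control, and Lyve1 in DOX+AMH had 0 and 1 UMIs. Of the 3 higher genes, intervals of 2 spanned 0 in 1 library each: Cxcl9 in DOX (4 and 6 UMIs, -1.09 to 3.25) and S100a4 in DOX+AMH (-0.42 to 0.85). The split left 50 and 77, 12 and 39, 16 and 28, and 46 and 85 cells (high and low). Ccr2, the monocyte chemokine receptor, stood in high against low cells at 506 and 3.23 CPM in control, 439.9 and 5.33 in DOX, 218 and 78.0 in DOX+AMH, and 329 and 14.1 in AMH. It was higher in the high cells of each library, least so in DOX+AMH. Gpnmb (a lysosomal glycoprotein), Trem2 (a lipid receptor), Igf1 (a growth factor), Gas6 (a bridge to dying cells), Stab1 (a scavenger receptor), Spp1 and Folr2 were lower in the high cells of all 4 libraries, although the Folr2 interval in DOX+AMH spanned 0. For Gpnmb the values were 38.3 and 932 in control, 78.3 and 478 in DOX, 342 and 1419.7 in DOX+AMH, and 365 and 1388 in AMH.

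Other genes kept no such order. Il1b, an inflammatory cytokine, was higher in the high cells of control (869.6 and 100.1 CPM) and DOX (512 and 149), while both libraries with AMH had near-equal values (89.9 and 110.0 in DOX+AMH, 272 and 286 in AMH). Cdkn1a was higher in high cells of control (429 and 177), DOX (1223 and 668) and AMH (238 and 171), and lower in DOX+AMH (380.3 and 564). Within the high cells the p53 sum gave a drug ratio of 0.86 (0.71 to 1.01) without AMH and 0.10 (-0.07 to 0.26) with it. Within the low cells it gave 0.85 (0.75 to 0.96) and 0.52 (0.41 to 0.63). Between the drug libraries the sum was 0.99 lower with AMH in high cells and 0.23 lower in low cells on the log2 scale; these rest on 12 and 16 high cells and were not tested against each other.

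**Figure D4:**
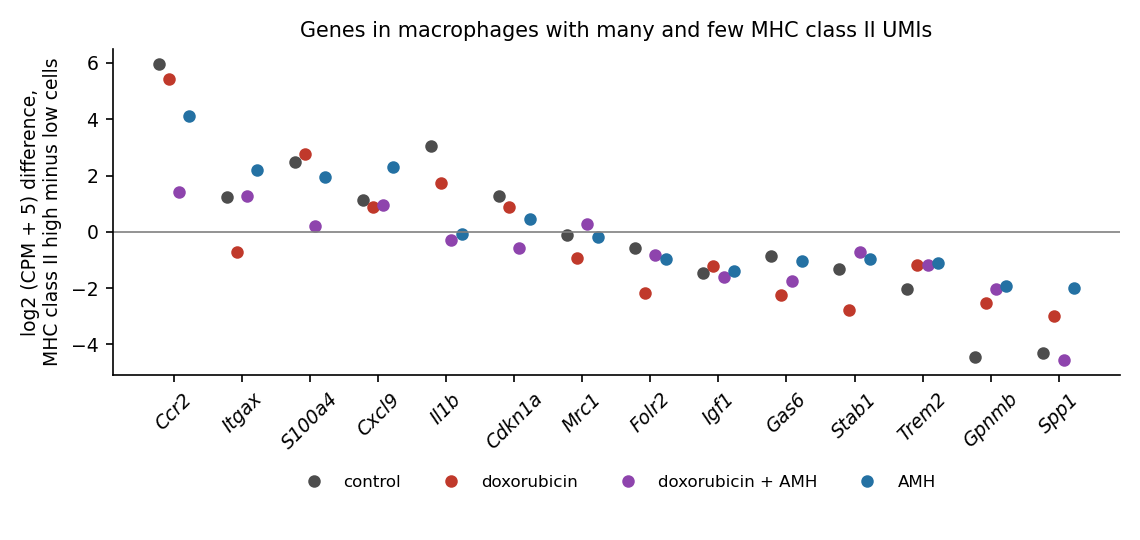
Difference in log2 (CPM + 5) between macrophages with at least 10 and with fewer MHC class II UMIs per 2000, for 14 genes and 4 libraries; each point is 1 library and the line marks no difference. Ccr2 lies above 0 and Igf1, Gas6, Stab1, Trem2, Gpnmb and Spp1 below 0 in all 4 libraries, while Il1b ranges from 3.06 in control to -0.28 in DOX+AMH.

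Cd209f, a C-type lectin of the DC-SIGN family, was the lowest gene when both drug pairs were ranked together. It stood at 197 CPM in control and 134 in AMH, with 280 and 204 UMIs, and at 1 UMI each in DOX and DOX+AMH (1.34 and 1.25 CPM). The log2 ratio interval was -12.50 to -4.70 without AMH and -12.06 to -4.25 with it. The UMIs came from few cells. Cells with at least 2 numbered 12 of 145 in control (8.28%, 4.35 to 14.0) and 11 of 151 in AMH (7.28%, 3.69 to 12.7), against 0 of 63 and 0 of 52 with the drug. A count of 0 allows shares of up to 5.69% and 6.85% there (exact upper bounds), above the lower bounds of 4.35% and 3.69%. Thinned, no T or NK cell had a Cd209f UMI.

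The 12 and 11 Cd209f cells, sets chosen after the values were seen and described without a test, carried genes of long-lived resident macrophages. In control and AMH, Lyve1 (a hyaluronan receptor) was at 339 and 514 CPM in them and at 12.9 and 3.49 in the other macrophages. F13a1 (coagulation factor XIII) was at 1108 and 1896 against 231 and 177, Folr2 (a folate receptor) at 724 and 423 against 89.0 and 83.9, and Mrc1 (the mannose receptor) at 2867 and 3153 against 1113 and 706. These 4 genes were higher in the Cd209f cells of both libraries. Gpnmb was at 0 UMIs in the Cd209f cells of both libraries, with 674 and 1094 CPM in the rest. Spp1 (osteopontin) was at 0 and 114 CPM against 2142 and 3069.9, and Fabp5 at 174 and 57.1 against 1332 and 2222.

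The wider resident macrophage list did not follow Cd209f in the DOX library when all macrophages were summed. Of 14 listed genes 12 passed. Against control, 0 were past 2-fold in DOX (median 0.08, sum -0.07, -0.11 to -0.02, or 0.10 without the cells rich in other-type RNA). Within class II high cells the sum was -1.13 (-1.28 to -0.98; 2543 CPM in 12 DOX cells and 5558 in 50 control cells), and within low cells 0.00 (-0.05 to 0.06). Folr2 was at 138, 168, 27.5 and 103 CPM, Cd163 (the haemoglobin scavenger receptor) at 85.7, 59.1, 16.2 and 48.7, F13a1 at 298, 317, 98.7 and 277, and Mrc1 at 1248, 1013, 642 and 847. Each was lowest in DOX+AMH. Lyve1, under the filter, was at 37.9, 85.9, 1.25 and 32.9, from 18, 7, 1 and 13 cells.

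DOX+AMH against DOX gave 4 resident genes past 2-fold lower and 1 higher, with a median of -0.74 and a sum of -0.41 (-0.47 to -0.35). By class II level the sum had opposite signs, at 0.65 (0.49 to 0.82) in high cells, of which these libraries held 16 and 12, and -0.45 (-0.52 to -0.38) in low cells. The lower ones were Folr2 (-2.41, -3.33 to -1.95), F13a1 (-1.63), Cd163 (-1.59) and Cbr2 (-1.04), beside 2.44% of all genes. Ccl24, an eosinophil chemokine, was the higher one (2.19), and 91 of its 142 UMIs in DOX+AMH came from 1 cell. Against AMH alone 3 resident genes were lower and 1 higher, median -0.35. Thinned, Folr2 was seen in 17.3%, 23.5%, 4.55% and 18.3% of macrophages. Cd163 was seen in 15.7%, 13.7%, 0% (0 of 44, with an exact upper bound of 8.04% at that depth) and 14.5%. Unthinned, Folr2 was seen in 39.3%, 39.7%, 23.1% and 32.5% and Cd163 in 27.6%, 15.9%, 11.5% (6 of 52) and 19.9%, so that the Cd163 shares of the 2 drug libraries lay closer together. T and NK cells had Folr2 in at most 1.47% and Cd163 in 0.

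Genes of lipid handling differed in the other direction between the 2 drug libraries. These genes mark macrophages that load lipid from dying cells. Gpnmb stood at 622, 379, 1011 and 1031 CPM, Fabp5 (a fatty acid carrier) at 1243, 1259, 2844 and 2097, Fabp4 (another carrier) at 309.6, 83.2, 277 and 221, and Lgals3 at 1394, 1392, 2923 and 2205. Gpnmb and Fabp4 were lowest in DOX, and Fabp5 and Lgals3 were lower in both libraries without AMH. Of 13 listed genes 12 passed, and in DOX+AMH against DOX 5 were past 2-fold higher and 0 lower, with all 12 above 0 and a median of 0.72. The 5 were Fabp4 (1.68), Gpnmb (1.41, 1.22 to 1.62), Fabp5 (1.17), Lgals3 (1.07) and Abcg1 (1.02), a cholesterol exporter, beside 1.08% of all genes. Without the cells rich in other-type RNA 2 of the 5 were past 2-fold, Fabp4 (1.42) and Gpnmb (1.10), while Fabp5 and Abcg1 were at 0.94 and Lgals3 at 0.77. In DOX against control 0 were higher and 1 lower (Fabp4, -1.83, -2.30 to -1.51). The list sum gave -0.57, 0.00 (0.68 with cells carrying the 4 other-type genes let in), -0.14 and 0.43, and Apoe, its most abundant member at 31084, 19916, 23487 and 24101 CPM, carries most of it. Weighting each cell equally brought the Gpnmb ratio to 0.67.

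Spp1 shows how 1 cell can carry a level. It was at 1978, 1259, 1692 and 2899 CPM, but 1577 of 2817, 791 of 938, 463 of 1354 and 1629 of 4403 UMIs came from the top cell of each library. Without those cells it was at 887, 205, 1179 and 1889 CPM, and DOX+AMH against DOX went from 0.42 to 2.49. Counting cells gives a steadier view: thinned, Gpnmb was seen in 15% (9.25 to 22.4), 11.8% (4.44 to 23.9), 34.1% (20.5 to 49.9) and 17.6% (11.5 to 25.2). Trem2 was seen in 37.0%, 49.0%, 68.2% and 49.6%, and Spp1 in 15%, 11.8%, 31.8% and 19.1%. The DOX+AMH library had the highest share of each, with intervals that overlap those of DOX.

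**Figure D5:**
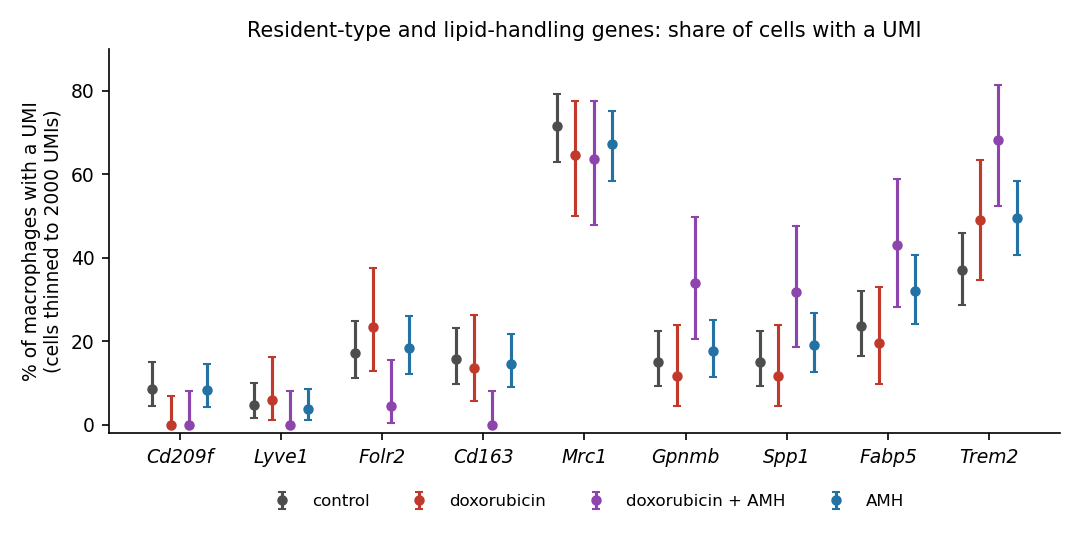
Share of macrophages with a UMI of 5 resident-type and 4 lipid-handling genes after thinning every cell to 2000 UMIs; each point is 1 library and bars are exact 95% binomial intervals. Cd209f is at 0% in both DOX libraries, Folr2 and Cd163 are lowest in DOX+AMH at 4.55% and 0%, and Gpnmb, Spp1, Fabp5 and Trem2 are highest there.

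Genes of the lysosome, where engulfed material is broken down, were also mostly higher in DOX+AMH than in DOX. All 16 listed genes passed, and 14 of 16 lay above 0 in DOX+AMH against DOX (46.0% of all genes did), with 1 past 2-fold (Psap, a saposin precursor, at 2232, 1752, 3615 and 2462 CPM; 1.04, or 0.82 without the cells rich in other-type RNA). The list sums gave -0.21, 0.34, 0.01 and 0.56 (0.52 to 0.59), and without those cells 0.02, 0.25, 0.15 and 0.37. Mfge8, a bridge to dying cells, was at 35.8, 28.2, 161 and 69.8, and its list of 13 apoptotic cell uptake genes (9 passed) had 1 gene past 2-fold, Mfge8, in each contrast with DOX+AMH. A single cell gave much of that level: without the top cell of each library Mfge8 was at 21.5, 22.0, 71.6 and 56.1 CPM, and its ratio went from 2.32 to 1.51 against DOX and from 1.15 to 0.33 against AMH. Among iron genes, Slc40a1, the iron exporter ferroportin, was at 243, 297, 146 and 73.1, lower in both libraries with AMH than in both without it. Of 9 iron and heme genes 8 passed, with sums from -0.14 (DOX against control, 0.06 without the cells rich in other-type RNA) to 0.33. Slc40a1 was past 2-fold lower in AMH against control and Cd163 in both contrasts with DOX+AMH.

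Cxcl9, Gbp2 and Iigp1, which interferon-γ induces, are among the genes with the highest ratios in DOX+AMH against DOX, which is how they were chosen. Cxcl9, a T cell attracting chemokine, was at 71.6, 13.4, 416 and 269 CPM, from 12, 3, 12 and 11 cells. Both libraries with AMH lay above both without, with log2 ratios of 1.84 (1.59 to 2.24) without the drug and 4.51 (4.06 to 6.03) with it. Gbp2, an interferon-induced GTPase, was at 39.3, 16.1, 121 and 82.3, and Iigp1 (another) at 52.7, 30.9, 172 and 67.2. Few cells carried these transcripts: thinned, Cxcl9 was seen in 7.87% (3.84 to 14.0), 1.96% (0.0496 to 10.4), 18.2% (8.19 to 32.7) and 6.87% (3.19 to 12.6), intervals that overlap. The wider interferon list (16 listed, 7 passed) had sums of 0.09, 0.18, -0.22 and -0.13. In DOX+AMH against DOX 3 of its 7 genes lay above 0 and 1 was past 2-fold (Gbp2, 2.58), and the summed level was highest in DOX (1608 CPM, against 1475 in DOX+AMH).

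Among 21 chemokine and receptor genes, 20 passed. In DOX against control 2 were lower (Cxcl9, -2.06, and the neutrophil attractant Cxcl1 at 102, 28.2, 72.5 and 65.9 CPM, -1.69) and 0 higher, beside 0.422% and 1.14% of all genes. In DOX+AMH against DOX 5 were higher (Cxcl9, Ccl24, Cxcl10, Ccl8 and Cxcl1) and 1 lower, beside 1.08% and 2.44%. Of these 6, Cxcl9 and Ccl24 kept their call both without the cells rich in other-type RNA and without the top cell of each library. Ccl8 went from 1.23 to 0.95 without the cells rich in other-type RNA, and Cxcl10 (1.79) and Cxcl1 (1.22) both went to 0.49 without the top cells. Ccl12, a monocyte attractant, was the lower one. It stood at 535, 1032, 339.9 and 463 CPM, with 371 of its 769 DOX UMIs in a single cell, and its ratio of -1.59 became -0.92 under either of these exclusions. Ccl2, the main ligand of Ccr2, was at 451, 725, 446 and 257, higher with the drug in both pairs (0.68, 0.52 to 0.85, and 0.78, 0.58 to 1.00) though not past 2-fold. Ccl5 was at 29.5, 47.0, 88.7 and 232, and at 17.2, 2.73, 70.4 and 98.1 without the top cell of each library.

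Of the inflammatory cytokines that passed, 0 were past 2-fold higher with the drug. The 1 past 2-fold lower was Il1b, in DOX+AMH against AMH (-1.41) and against DOX (-1.13), beside 1.57% and 2.44% of all genes. Both calls stayed without the cells rich in other-type RNA and without the top cell of each library. Il1b was at 353, 227, 101 and 277 CPM, from 49, 11, 14 and 51 cells, and Tnf at 131, 144, 107 and 134. Of 13 listed cytokines 4 passed, with sums of -0.36 (-0.49 to -0.23) without AMH and -0.54 (-0.68 to -0.40) with it. Of 13 microbial sensing and NF-κB feedback genes 7 passed, 0 were past 2-fold, and the sums were -0.44 and -0.22. Within it Nfkbia, the NF-κB inhibitor, was at 524, 364, 321 and 408, and Tnfaip3 (A20) at 171, 96.6, 73.7 and 123.

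Both drug libraries lay below both others in each of these, Tnf apart. That order did not hold when cells with UMIs of Cd3e, Cdh5, Fshr or Lum were let in: the cytokines then summed to 857, 739, 676 and 628 CPM and the sensing genes to 1408, 1076, 1315 and 993, so DOX+AMH against AMH turned from -0.54 to 0.11 and from -0.22 to 0.41. The immediate early and dissociation stress list (19 listed, 18 passed), which reads tissue handling, gave sums of -0.23, -0.29, -0.01 and -0.07, lower in the same libraries; its part in the cytokine values was not tested. In all other kept cells that list gave -0.01, 0.05, -0.07 and -0.00, and in T and NK cells, with the limit on the AMH set given above, -0.07, -0.73, 0.90 and 0.24.

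Genes of macrophage growth and identity differed little. Leaving out Csf1r, a gene of the rule, all 11 listed receptors and regulators passed, 0 were past 2-fold in any contrast, and the sums were -0.22, -0.22, -0.06 and -0.06. Maf, a macrophage transcription factor, was at 718, 550.4, 402 and 605 CPM, and Cx3cr1, the fractalkine receptor, at 519.6, 315, 315 and 354. The 4 Fc receptors outside the rule all passed, with Fcgr4 at 77.9, 67.1, 159 and 73.8 past 2-fold in both contrasts with DOX+AMH (1.06 and 1.18, but 0.76 and 0.93 without the top cell, and 0.96 against AMH without the cells rich in other-type RNA). Of 9 complement genes outside the rule 6 passed, and C3 (23.2, 29.5, 68.7 and 82.3) was the 1 past 2-fold, in both AMH contrasts, although the smaller of its ratios was under 2-fold in 5 of 13 alternatives. Monocyte genes (12 listed, 3 passed) gave sums of -0.35, 0.56, -0.23 and 0.68. Most of that sum is Lyz2, at 9473 of 9781 CPM in control and 11855 of 12315 in DOX+AMH. Lyz2 is also an identity gene above, so the sum describes it more than the other listed genes. Plac8 was the 1 past 2-fold in both contrasts with DOX+AMH, at 32.3, 59.1, 182 and 39.5 CPM, and its UMIs there came from 7 cells.

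Cycling cells (5 or more UMIs per 2000 from the S phase list or from the G2/M list) made up 11% (6.16 to 17.8), 9.80% (3.26 to 21.4), 15.9% (6.64 to 30.1) and 4.58% (1.70 to 9.70), with overlapping intervals. Thinned to 4000 UMIs with the same limit the shares were 13.9%, 21.7%, 15.9% and 23.1%, so AMH went from the lowest to the highest and no order is read from them. Only 2 of 28 S phase genes and 5 of 29 G2/M genes passed the filter. The S phase sums were 0.37 (0.21 to 0.53), 0.67 (0.51 to 0.83), -0.26 and 0.04, and the G2/M sums -0.16, -0.08, -0.43 and -0.35 (0.24, 0.10, -0.37 and -0.51 without the cells rich in other-type RNA). With the cells carrying the 4 other-type genes let in, the G2/M sums were 0.74 and 0.83 in the drug contrasts. The 7 Bcl2 family genes that passed of 13 had 0 past 2-fold, with sums from 0.05 to 0.12 (-0.15 to 0.56 with cells carrying the 4 other-type genes let in).

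The AMH receptor itself was barely detected, while some other genes of the pathway were measured. Amhr2, that receptor, had 8, 10, 9 and 24 UMIs in all macrophages (5.62, 13.4, 11.2 and 15.8 CPM), while other kept cells had 61.5 to 77.5 CPM. Thinned, it was seen in 0.787%, 3.92%, 2.27% and 1.53% of macrophages and in 1.47%, 4.35%, 1.61% and 3.77% of T and NK cells, which is read as background. Of 8 receptor and Smad genes 3 passed, and the list summed to 269.6, 524, 225 and 402 CPM. Bmpr1b, a type 1 receptor of the family, was at 28.8, 169, 22.5 and 98.8 CPM with all cells, and at 12.4, 1.78, 9.42 and 49.0 without those rich in other-type RNA. Of 8 BMP/SMAD targets 2 passed, Id2 (187, 164, 239.9 and 318) and Id3 (92.0, 103, 47.5 and 128). Both were higher in AMH than in control, by 0.75 (0.55 to 0.99) and 0.46 (0.15 to 0.81); without the cells rich in other-type RNA Id3 was at 77.8 CPM in control and 87.2 in AMH. With the drug Id2 was 0.54 higher and Id3 1.05 lower on the log2 scale, or 0.51 lower without the cells rich in other-type RNA.

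Ranking all 3321 genes by the smaller of both drug ratios named Cdkn1a (1.35), Gda (0.99), S100a4 (0.93) and Pvt1 (0.91) at the top. S100a4, a calcium-binding protein of motile cells, was at 42.8, 165, 115 and 58.0 CPM, from 10, 9, 10 and 13 cells. Gda (guanine deaminase) was at 41.4, 87.3, 95 and 34.9, and Pvt1, a long non-coding RNA beside Myc, at 64.6, 172, 92.5 and 46.8. Hist1h1b and Plac8 came next, then Akr1cl and Gramd1b, and each of these 4 lost its common direction in at least 1 alternative. Without the top cell of each library Plac8 was at 26.2 CPM in control and 22.0 in DOX, and without cells rich in other-type RNA Gramd1b was at 41.4 and 39.2. Akr1cl was at 247, 759.8, 437 and 258 CPM and at 91.0, 114, 182 and 153 without cells rich in other-type RNA. At the low end were Cd209f (-4.48), Ovgp1, Acta2, St3gal6, Gem, Jmy, Ighm and Dusp2. Over the alternatives Dusp2 lost its common direction at least once, and Gem went from -0.95 to as little as -0.30. St3gal6, a sialyltransferase, was at 115, 56.4, 33.7 and 90.2. Ovgp1 and Acta2 belong to oviduct or epithelium and to smooth muscle, and 882 of 935 Ovgp1 UMIs in AMH came from 1 cell.

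Ranked the same way by AMH, the top held Cxcl9 (1.84), Gstm2 (1.20, or 0.68 without the top cell), C3 (1.09), Gbp2, Gadd45g, Mfge8, Ccl5 and Fabp5. Gstm2 and C3 lost their common direction with the cells carrying the 4 other-type genes let in. The bottom held Cyp17a1, Cyp11a1, Col1a2 and Frmd5, then Mgl2 (-1.0), Slc40a1 (-1.0), Ddx60 and Mrnip. Mgl2, a galactose-type lectin, was at 339.8, 258, 111 and 167 CPM. Cyp17a1 and Cyp11a1 are steroidogenic enzymes of theca cells and Col1a2 a collagen of stroma, and none of the 3 differed past 2-fold in both contrasts without the cells rich in other-type RNA. The 5 genes lowest in DOX+AMH against DOX (Frmd5, Aff3, Csmd1, Inhba and Bmpr1b) include granulosa genes, as do the highest in DOX against control (Inhba, Inha, Bmpr1b, Ccng1 and Frmd5). Of these 7 genes Ccng1 and Aff3 kept their call without those cells.

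Inha, the inhibin subunit of granulosa cells, illustrates this. It was at 99.7, 668, 109 and 247 CPM, and 4 DOX cells with 156, 138, 88 and 41 of 498 UMIs gave most of it. Without the cells rich in other-type RNA it was at 66.2, 91.0, 91.5 and 149. Thinned, it was seen in 13.4%, 33.3%, 9.09% and 35.1% of macrophages and in 26.5%, 30.4%, 35.5% and 37.7% of T and NK cells, so that no library stood clearly above its lymphocytes.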

How the data were processed

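Single-cell 3′ RNA was measured in 4 mouse ovary libraries. Per the file headers, the deposited UMI counts of 32285 genes in each barcode come from Cell Ranger 7.0.0; they are whole numbers without normalization. The submitters' processing notes name mm10, R 4.2.0 and Seurat 4.1.0; the annotation and the use of intronic reads are not given in the sources used here.

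Cells were filtered and chosen by the rule above, with Python 3.11.15, numpy 2.4.6, scipy 1.17.1, pandas 2.3.3 and matplotlib 3.10.9. UMIs were summed over the macrophages of each library and expressed per 1000000 UMIs of that sum. Doublets were not removed. Scores from Scrublet in scanpy 1.11.5 were used in an alternative that left out the highest scores, at 0.8% per 1000 cells. Cells were thinned to 2000 UMIs for shares, which left out 18, 12, 8 and 20 shallower cells. Comparison lymphocytes (70, 23, 66 and 54 cells) had at least 2 of Cd3d, Cd3e, Cd3g, Trbc2 and Nkg7 and under 2 macrophage genes; B cells were not compared, since Ptprc was seen in 8 of 24, 6 of 21, 8 of 15 and 9 of 19 of them. The self-test ran on simulated data.

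Genes were named by rank among the 3321: the 8 highest and lowest in both drug contrasts, likewise for AMH, the 5 highest and lowest in DOX+AMH against DOX and in DOX against control, 15 identity genes and any gene of 24 lists. The macrophage rule, the genes and the lists were chosen with earlier results of these data known. Intervals are exact (binomial, Poisson or conditional binomial).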

Additional observations from a re-analysis of the deposited data

Results flagged for a closer look

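In 6 results the drug ratio lay above 0 without AMH and below 0 with it, or the reverse, each with an interval on its side of 0, and both ratios past 2-fold for a gene or at least 0.3 from 0 on the log2 scale for a list sum. In none of them was the difference between the 2 ratios tested, since each rests on 1 library per group.

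The summed MHC class II list was -0.70 in DOX against control and 0.35 in DOX+AMH against AMH, a difference of 1.05 on the log2 scale, and -0.47 and 0.98 with cells let in that had UMIs of Cd3e, Cdh5, Fshr or Lum. The summed monocyte list, most of whose UMIs are Lyz2, was -0.35 and 0.56, a difference of 0.91. It was -0.13 and 0.44 without cells rich in other-type RNA, and 0.04 and 1.19, with the same sign, with those cells let in.

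The other 4 are 3 genes and 1 list. Inha was 2.69 and -1.15 (difference -3.84), and Bmpr1b 2.37 and -1.92 (difference -4.29). Without cells over 0.2% other-type UMIs Inha was at 0.43 in DOX against control, with 91.5 CPM in DOX+AMH and 149 in AMH. Bmpr1b then gave -1.36 and -1.91, with the same sign. The list of AMH and BMP receptors and Smads, which holds Bmpr1b, was 0.96 and -0.84 (difference -1.80). Without cells over 0.2% other-type UMIs that list gave -0.04 and -0.58, and with the cells carrying the 4 other-type genes let in 0.33 and -2.0. Aff3, a transcription regulator of the AF4 family, was 1.43 and -2.37 (difference -3.80). Without cells over 0.2% other-type UMIs its level was 12.4, 12.5, 1.35 and 36.6 CPM (control, then DOX, then DOX+AMH, and AMH last). The part of granulosa RNA in these 4 results was not tested.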

How the results depend on the processing

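No paired analysis was possible because each group has 1 library and no replicate numbers. The cell filters, the marker number, the scaling, the pseudocount, the gene filter and the weighting of cells were each altered in turn. Leaving out cells over 0.2% other-type UMIs and leaving out the top cell per gene were chosen after seeing the data. The macrophage share moved with at least 3 markers to 2.05% in control and 1.31% in DOX, with at least 5 to 1.40% in control and 1.42% in AMH, and with no limit on the 4 other-type genes to 2.03% in control, 1.00% in DOX+AMH and 2.20% in AMH. Both drug libraries stayed below both others in each of these. The summed p53 ratio moved in DOX against control to 0.71 (at least 3 markers), 0.90 (highest Scrublet scores left out), 1.02 (without cells rich in other-type RNA) and 0.60 (without Cdkn1a). In DOX+AMH against AMH it moved to 0.63 (no limit), 0.56 (cells weighted equally) and 0.18 (without Cdkn1a), in AMH against control to -0.25 (no limit), and in DOX+AMH against DOX to -0.34 (at least 3 markers), -0.59 (without cells rich in other-type RNA) and -0.33 (cells weighted equally). The count of genes past 2-fold, 52, 77, 48 and 117 in the order of the contrasts, became 167, 239, 133 and 343 at 20 CPM, 18, 24, 19 and 45 at 100 CPM, and 717, 839, 510 and 1163 with no filter. It was 313 and 110 in DOX+AMH against AMH and AMH against control with no limit, 33 and 26 in DOX against control and AMH against control with a pseudocount of 20 CPM, and in AMH against control 27 without cells rich in other-type RNA and 24 without the top cell. Of the alternatives that can change shares of thinned cells (the UMI minimums cannot), the class II high share kept its value within counting error in 28 of 28. The cycling share moved in 2 of 28, to 21.7% in DOX and 23.1% in AMH when thinned to 4000 UMIs. Of the named genes, 651 values were alike, 150 moved and 5 changed sign, all without cells rich in other-type RNA: Frmd5 to 0.60 and -0.77, Inhba to 0.43, and Bmpr1b to 1.09 and -1.36 (DOX+AMH against DOX first, then DOX against control for Frmd5 and Bmpr1b). A change of sign was counted only for values past 2-fold. A lost common direction of the 2 ratios of a pair ranking, as told above, was not counted as one. Other causes of these moves were not tested.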

Other observations

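The heat shock genes of the AMH macrophages stood apart from the rest of the dissociation stress list. Hspa1a was at 196, 201, 129 and 409.6 CPM (control, DOX, DOX+AMH and AMH) and Hspa1b at 66.0, 63.1, 70.0 and 334. Both were past 2-fold higher in AMH against control, at 1.05 (0.86 to 1.27) and 2.25 (2.02 to 2.67), while the list median was -0.06. Without the cells rich in other-type RNA these were 0.94 and 2.18. In the same contrast the summed stress list ratio was -0.07 in all other kept cells and 0.90 in T and NK cells, whose AMH set included a cell of 161482 UMIs and had Ptprc at 159 CPM against 834 in control.

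Genes that handle doxorubicin differed little with the drug. Of 10 listed, 3 passed the filter: Top2a (91.3, 96.6, 78.7 and 62.6 CPM) and Top2b (72.3, 76.5, 55.0 and 51.4), the drug's targets, and Abcb1b (65.3, 63.1, 53.7 and 55.3), an efflux pump. The summed ratios were 0.06 (-0.16 to 0.27) and -0.02 (-0.25 to 0.21) in the drug contrasts, and -0.28 (-0.46 to -0.09) and -0.35 (-0.61 to -0.10) in the AMH contrasts. Of 13 antioxidant genes 9 passed and 0 were past 2-fold, with sums of 0.26 (0.19 to 0.34) without AMH and 0.05 (-0.02 to 0.12) with it; Prdx1, a peroxiredoxin, was at 1026, 1431, 1116 and 1206 CPM. Of 9 growth factor genes 5 passed, with sums from -0.05 to 0.07.

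Il10, an anti-inflammatory cytokine under the filter, was at 85.0, 17.5, 36.2 and 26.3 CPM. C4b, a complement gene also under it, was at 56.9, 13.4, 8.75 and 45.4, lower in both drug libraries. Neither gene was checked without the cells rich in other-type RNA, and the part of such RNA in these levels was not tested.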
